A study of Homo sapiens with 5 samples.

Results

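The genes described here are 10 regulators of entry into the cell cycle: the phosphatase genes CDC25A, CDC25B and CDC25C, the D-type cyclin genes CCND1, CCND2 and CCND3, their kinase partners CDK4 and CDK6, and the kinase inhibitor genes CDKN1A and CDKN1B. They were chosen by symbol, and all 10 were found among the 60651 genes of the files and passed the filter on low counts. RNA came from COLO 320DM, a human colorectal adenocarcinoma line known for its amplified MYC locus, with poly(A) selection. The control siRNA group held 2 libraries, siL2 and siNT, each with its own non-silencing siRNA. The USP17 siRNA group held 3 libraries, labelled siIDT, sino4 and siSMPLT. They were taken as USP17-targeting because the series names the other 2 as controls, and no siRNA sequences are given. The series asks how USP17 acts in colorectal cancer, with beta-catenin named in its title. The labels give neither dose nor time after transfection, nor any statement of separate cultures, so each p-value measures the spread between these libraries only, which may be technical and includes what each siRNA does by its own sequence.

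Cyclin D and CDK4 or CDK6 form the kinase that starts phosphorylating the retinoblastoma protein in G1, which frees E2F factors to switch on S-phase genes such as those of the E-type cyclins. CDKN1A (p21) and CDKN1B (p27) bind cyclin-CDK complexes and hold them back, while CDC25 phosphatases remove inhibitory phosphates from CDKs and so release them. CDC25A protein is a reported substrate of USP17, a deubiquitinase, and much of the control of CDC25A, cyclin D, p21 and p27 acts on the proteins, which mRNA counts do not measure.

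The siRNA target itself could not be followed. All 30 genes of the USP17L family had 0 reads on their own strand, an RSEM expected count of 0 and a TPM (RSEM's transcript level, scaled for length and library size) of 0 in each of the 5 libraries, controls included. Reads in genes numbered 31704821 to 36276143 per library. Of 10 colon epithelium markers, CDX2 stood at 1631 to 2098 CPM (counts relative to the library's scaled read total), while CDH1, CDX1, VIL1 and LGALS4 were under 1 CPM in all 5 libraries. Summed over the list these markers gave 1811 to 1870 CPM in the USP17 libraries and 2192 and 2270 CPM in the controls, with CDX2 the bulk of it. CDX2, an intestinal transcription factor, fell by 0.31 on the log2 scale (adjusted p 0.0162, edgeR), and CDH17, an intestinal cadherin, rose by 0.88 (adjusted p 0.00285). The markers' part in the results below was not tested. Neuroendocrine markers summed to 6.51 to 11.5 CPM, with CHGA and INSM1 under 1 CPM throughout, and leukocyte and stromal markers to 60.1 to 73.0 CPM, mostly PTPRC.

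The sequences that bear on these genes are of 2 kinds. The first are promoters, read as 300-base windows from 250 bases before to 50 after a RefSeq start (GRCh38.p14), in which 8 of the 10 genes had 17 windows. CCND1 and CCND2 are not in that table. Windows were searched on both strands for the E2F letters TTCGCGC and TTGGCGC, the cell cycle homology region TTTGAA and TTCGAA, the MYC-type E-box CACGTG, and the TCF letters CTTTGAT and CTTTGAA, the last of which contains TTTGAA. Of all 35116 windows of this length, 5.06% held the E2F letters, 16.4% the cell cycle homology region, 7.26% the E-box and 6.86% the TCF letters. Counted by gene, over 27305 genes, the shares were 6.1%, 19.5%, 8.77% and 8.35%. CDC25A was the only one of these 8 genes with the E2F letters, a palindrome that gives overlapping matches starting 43 and 40 bases before the start site. Only CDK4 and CDK6 had an E-box, and CDK4 had 3 of them. CDC25B and CDC25C had the cell cycle homology region, and none of the 8 had the TCF letters. The promoters of CDC25A and CDK4 are shown because they carry these matches, and that of E2F7 because it holds the E2F letters as CDC25A does and its transcript passed the test while that of CDC25A did not. Capitals mark the matched letters, and each match is a description of letters only.
CDC25A, chr3:48188368-48188667, minus strand: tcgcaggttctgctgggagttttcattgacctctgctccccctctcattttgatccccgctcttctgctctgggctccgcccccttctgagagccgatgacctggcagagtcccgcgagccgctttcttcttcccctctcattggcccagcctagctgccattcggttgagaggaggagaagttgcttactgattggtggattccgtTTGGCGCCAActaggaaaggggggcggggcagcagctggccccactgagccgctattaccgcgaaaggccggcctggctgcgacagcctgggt
CDK4, chr12:57752261-57752560, minus strand: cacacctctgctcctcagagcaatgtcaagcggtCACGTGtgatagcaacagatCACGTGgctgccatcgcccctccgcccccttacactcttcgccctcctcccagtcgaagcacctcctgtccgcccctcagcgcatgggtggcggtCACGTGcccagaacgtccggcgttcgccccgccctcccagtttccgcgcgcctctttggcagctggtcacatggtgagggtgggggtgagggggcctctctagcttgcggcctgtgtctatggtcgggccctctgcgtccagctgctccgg
E2F7, chr12:77065520-77065819, minus strand: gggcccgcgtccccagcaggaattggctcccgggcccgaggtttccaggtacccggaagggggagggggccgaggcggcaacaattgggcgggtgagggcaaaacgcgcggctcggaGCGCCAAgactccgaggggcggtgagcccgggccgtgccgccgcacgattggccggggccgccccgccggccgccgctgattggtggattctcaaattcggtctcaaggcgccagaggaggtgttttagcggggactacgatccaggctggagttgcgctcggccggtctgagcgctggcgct

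The second are sites in 3' untranslated regions (GENCODE 29, GRCh38; the longest such region per gene). Earlier work on these same libraries had picked ATCACTC and TCACTCA as 7-base sequences whose carriers were lower with USP17 siRNA, and GATCATC as one whose carriers were lower in siL2, so carriers are named here as a description with no test. Of 12453 genes searched, 7.96% held ATCACTC, 12.2% TCACTCA and 6.33% GATCATC. The median log2 fold change (USP17 siRNA over control siRNA) was -0.12, -0.08 and 0.09 in these carriers, against -0.01, -0.01 and -0.02 in the genes without each. Of the 10 genes, CDKN1B held ATCACTC, CDK6 held TCACTCA in a region of 10219 bases, and CCND2 held GATCATC, each once. CCNA2, the cyclin A2 gene, is shown beside them because it held ATCACTC and TCACTCA, overlapping, 35 bases into its region and fell. Capitals mark the 7 bases, which in CCNA2 are those of ATCACTC, with the overlapping TCACTCA not marked.
CDKN1B, chr12:12721714-12721742, plus strand: gcagaatggtgATCACTCcaggtagtttg
CDK6, chr7:92612762-92612790, minus strand: ttttcataagtTCACTCAagaaaaatgca
CCND2, chr12:4302491-4302519, plus strand: cttgtgtttagGATCATCtctgcaggttt
CCNA2, chr4:121817586-121817614, minus strand: ctaagatgtaaATCACTCaaagtatatgg

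None of the 10 genes was called, that is, below 0.05 for the Benjamini-Hochberg adjusted p of the edgeR quasi-likelihood fit over all 16341 genes tested. Across those genes 10.5% were called, 4.64% higher and 5.82% lower with USP17 siRNA. At an unadjusted p of 0.05 the test named 1 of the 10, CCND2, and 4718 of all genes, and DESeq2's Wald test and limma-voom also called 0 of the 10. The median absolute log2 fold change was 0.08 over the 10 genes, 0.20 over all genes tested and 0.17 over the 72 other pathway genes described below. These sets were not measured with equal precision. The 95% interval reached a median of 0.235 to either side over the 10 genes and 0.289 over all genes tested, on the log2 scale. For 8 of the 10 the interval of the fold change lay wholly within 1.5-fold in either direction. The same held for 54.3% of all genes tested and 72.2% of the other pathway genes. The other two were CCND2 and CDKN1A. Levels in the USP17 libraries and in the controls did not overlap for 1 of the 10, CDK4, against 45.9% of all genes tested. RNA was taken from whole cultures, so a change in the share of cells in a phase and a change in RNA per cell cannot be told apart.

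**Figure D1:**
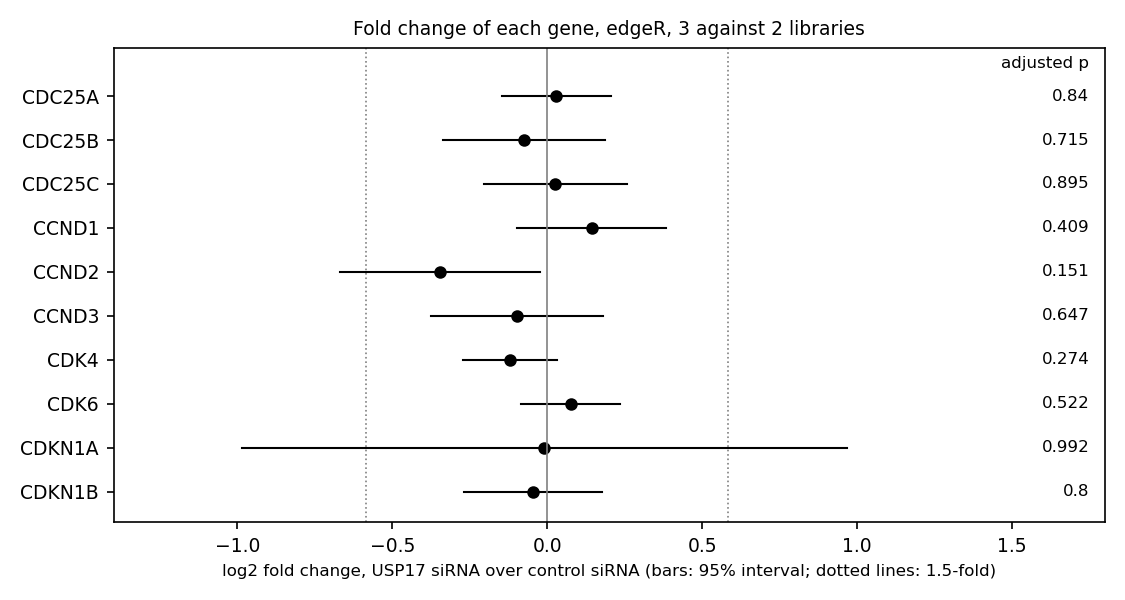
Log2 fold change (x axis, USP17 siRNA over control siRNA) of each of the 10 genes, with the edgeR estimate as a point, its 95% interval as a bar, and the adjusted p at the right. Dotted lines mark 1.5-fold; the intervals of CCND2 and CDKN1A cross at least 1 of them, and that of CDC25A runs from -0.15 to 0.21.

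The order of transcript levels was the same at its top in every library. CDK4 was highest, at 393.69 to 433.98 TPM, followed by CCND2 at 145.77 to 230.66 TPM and CDKN1B at 83.13 to 100.86 TPM, with no overlap between these 3. CDC25B (41.6 to 53.32 TPM) and CDC25A (37.7 to 41.94 TPM) overlapped in range, as did CDC25A and CDK6 (32.71 to 38.13 TPM), although each stood above the next in 5 of 5 libraries. CDC25C followed at 18.69 to 21.18 TPM. CCND3 (13.22 to 15.64 TPM) and CCND1 (11.52 to 14.97 TPM) overlapped, with CCND3 the higher in 4 libraries. CDKN1A stood far below the rest, at 0.18 to 0.37 TPM.

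**Figure D2:**
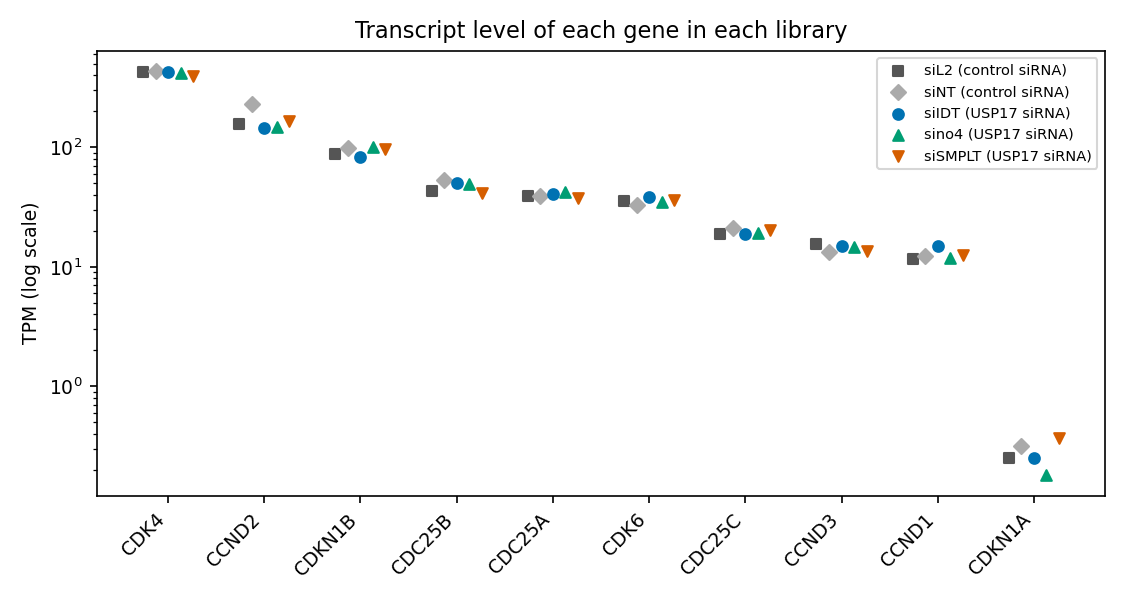
TPM on a log scale (y axis) of the 10 genes (x axis, in order of mean level), with 1 point per library. Points of a gene lie close together except for the siNT point of CCND2, at 230.66 TPM, and the spread of CDKN1A, whose values rest on 7 to 17 reads.

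Among the phosphatases, CDC25A, which acts from G1 onward and is the reported USP17 substrate, did not pass the test. It lies on chromosome 3 from 48157146 to 48188402 (GRCh38), and it measured 90.2, 93.9 and 85.4 CPM in siIDT, sino4 and siSMPLT against 86.0 and 90.1 CPM in siL2 and siNT, on 2732 to 3184 reads per library. The groups overlapped, and the siSMPLT library was the lowest of all 5. The log2 fold change of 0.03 ± 0.08 (SE) had a 95% interval from 0.903-fold to 1.15-fold (adjusted p 0.840, edgeR). The interval leaves out a change in mRNA larger than that in either direction, and says nothing of the protein.

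CDC25B, which acts with CDC25C at the entry into mitosis, measured 100.9, 99.6 and 82.6 CPM in siIDT, sino4 and siSMPLT against 90.2 and 108.6 CPM in siL2 and siNT. The siSMPLT library was again the lowest, and the controls enclosed the other two USP17 libraries. A log2 fold change of -0.07 ± 0.12 (SE) resulted (adjusted p 0.715, edgeR). CDC25C measured 23.1, 24.9 and 24.9 CPM against 22.0 and 25.7 CPM, so that all 3 USP17 values lay between the controls (log2 fold change 0.03 ± 0.10, SE; adjusted p 0.895, edgeR). In the summed TPM of the 3 phosphatase genes, CDC25A made up 37.5% ± 0.627 (SD, n = 3) with USP17 siRNA and 36.7% ± 2.97 (SD, n = 2) in the controls, CDC25B 44.3% ± 2.19 and 44.7% ± 2.93, and CDC25C 18.2% ± 1.78 and 18.6% ± 0.0401. No share differed beyond the spread between libraries (two-sided exact permutation p of 0.8, 0.8 and 1.0, n = 3 and 2, raw; adjusted over the 8 quantities of this kind, 0.914, 0.914 and 1.0; the smallest raw p that 3 against 2 libraries allow is 0.2).

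Among the D-type cyclins, CCND2 was the main transcript and the gene with the lowest fold change of the 10. It lies on chromosome 12 from 4273772 to 4305350 (GRCh38), and it measured 576.8, 602.0 and 661.3 CPM in siIDT, sino4 and siSMPLT against 631.3 CPM in siL2 and 927.9 CPM in siNT. The siNT library stood above the other four, and siL2 lay inside the range of the USP17 libraries. This gave a log2 fold change of -0.35 ± 0.14 (SE), from 613.4 ± 43.4 CPM (SD, n = 3) against 779.6 ± 210.0 CPM (SD, n = 2), with an unadjusted p of 0.0391 and an adjusted p of 0.151 (edgeR). The value turned on the choice of control: without siL2 it was -0.60 (adjusted p 0.00357, edgeR), and without siNT it was -0.04 (adjusted p 0.760). Each of these fits has a single control, whose spread is taken to equal that among the USP17 libraries. Between the controls CCND2 differed by 0.56 on the log2 scale (siNT minus siL2), more than the group difference, and the GATCATC site printed above is in its 3' untranslated region; the part of that site in the level in siL2 was not tested.

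CCND1, a textbook target of beta-catenin and TCF, measured 43.3, 35.4 and 37.1 CPM in siIDT, sino4 and siSMPLT against 34.1 and 35.9 CPM in siL2 and siNT. The siIDT library was the highest, and sino4 lay between the controls. The log2 fold change of 0.14 ± 0.11 (SE) did not pass (adjusted p 0.409, edgeR), with a 95% interval from -0.10 to 0.38 on the same scale, and was 0.05 without siIDT. In the same libraries CTNNB1, the beta-catenin gene, fell from 340.6 ± 20.3 CPM (SD, n = 2) to 199.5 ± 1.55 CPM (SD, n = 3), a log2 difference of -0.77 (adjusted p 0.00215, edgeR). Beta-catenin protein was not measured here, and a link between CTNNB1 and the level of CCND1 was not tested. CCND3 measured 18.8, 19.0 and 16.8 CPM against 21.6 and 17.3 CPM, with the groups overlapping (log2 fold change -0.10, adjusted p 0.647, edgeR).

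CCND2 made up 83.0%, 84.8% and 86.4% of the summed D-type cyclin TPM in siIDT, sino4 and siSMPLT and 85.2% and 90.1% in siL2 and siNT. CCND1 made up 8.52%, 6.77% and 6.56% against 6.27% and 4.79%, so that its share was higher in each of the 3 USP17 libraries than in either control. The difference in the mean share of CCND1 was 1.76 percentage points, with a two-sided exact permutation p of 0.2 (n = 3 and 2; adjusted 0.8), the smallest raw p this design allows. It was 1.14 points without siIDT, 1.02 without siNT and 2.49 without siL2. For the shares of CCND2 and CCND3 the exact permutation p was 0.4 and 0.8 (adjusted 0.8 and 0.914).

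**Figure D3:**
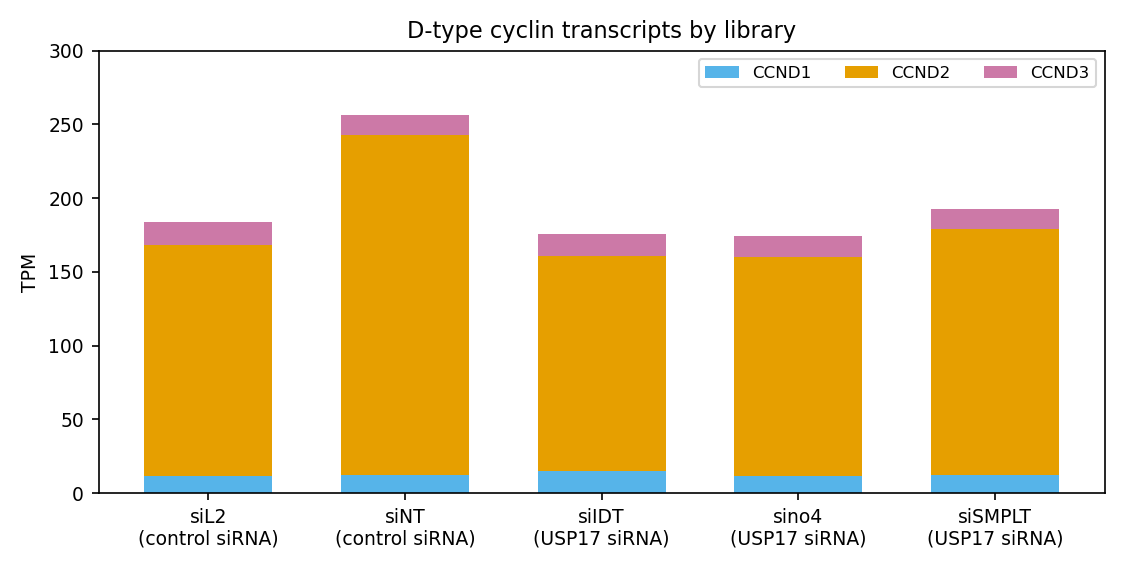
TPM (y axis, from 0) of CCND1, CCND2 and CCND3 stacked for each library (x axis). CCND2 fills most of each bar, and the siNT bar is the tallest because CCND2 reached 230.66 TPM there.

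The kinases that these cyclins bind had small fold changes of opposite sign, neither of them called. CDK4, on chromosome 12 from 57747727 to 57756013 (GRCh38), measured 264.1, 272.8 and 258.1 CPM in siIDT, sino4 and siSMPLT against 295.8 and 280.3 CPM in siL2 and siNT. All 3 USP17 values were under both controls in CPM, whereas in TPM the groups overlapped, with siIDT at 426.76 and siL2 at 423.91. In the edgeR fit to counts the log2 fold change was -0.12 ± 0.07 (SE; adjusted p 0.274). MYC, whose protein binds E-boxes, had a log2 fold change of -0.26 that did not pass either (adjusted p 0.0519, edgeR). A link between MYC and the level of CDK4 was not tested. CDK6 measured 300.3, 280.8 and 286.8 CPM against 285.7 and 263.4 CPM, with sino4 between the controls and a log2 fold change of 0.08 ± 0.07 (SE; adjusted p 0.522, edgeR). The log2 ratio of CDK6 to CDK4 TPM was -3.51 ± 0.0743 (SD, n = 3) with USP17 siRNA and -3.66 ± 0.0982 (SD, n = 2) in the controls, a difference of 0.15 (two-sided exact permutation p = 0.4, adjusted 0.8).

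Of the inhibitors, CDKN1A was close to absent as mRNA. It had 12, 7 and 17 reads in siIDT, sino4 and siSMPLT and 14 and 12 reads in siL2 and siNT, or 0.217 to 0.532 CPM. The USP17 libraries held the lowest and the highest value, and the 95% interval of the fold change ran from 0.505-fold to 1.96-fold, so a change of up to about that size was not detectable at this depth (adjusted p 0.992, edgeR). CDKN1B, on chromosome 12 from 12715058 to 12722371 (GRCh38), had 129.4, 147.7 and 153.4 CPM against 137.6 and 158.6 CPM, on 4229 to 5601 reads. The groups overlapped, and siIDT was the lowest library (log2 fold change -0.05 ± 0.10, SE; adjusted p 0.800, edgeR). The 95% interval ran from 0.830-fold to 1.13-fold of the controls. CDKN1B is the one of the 10 genes that carries ATCACTC. The log2 ratio of summed CDKN1A and CDKN1B TPM to summed D-type cyclin TPM was -0.95 ± 0.146 (SD, n = 3) with USP17 siRNA and -1.22 ± 0.229 (SD, n = 2) in the controls (two-sided exact permutation p = 0.4, adjusted 0.8).

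By siRNA, and with both controls shared by all 3 comparisons, the 10 genes lay a median absolute log2 difference of 0.08 from the control mean in siIDT, 0.05 in sino4 and 0.12 in siSMPLT. Each control lay a median of 0.11 from that mean, by construction the same for both. A control is part of that mean and a USP17 library is not. The controls' distance from it therefore cannot be ranked against those of the USP17 libraries. From siL2 to siNT the median absolute difference was 0.21 over the 10 genes and 0.19 over all genes tested. CDC25B (-0.26), CCND2 (-0.21) and CCND3 (-0.20) were furthest below the control mean in siSMPLT, leaving out CDKN1A for its few reads. In siIDT the largest values were CCND2 at -0.41 and CCND1 at 0.31, and in sino4 CCND2 at -0.35. By the mean absolute difference of centred log2 CPM over the 5 libraries, the pattern of CCND2 was nearest to that of E2F2 (0.022), which measured 17.2, 17.4 and 20.0 CPM against 19.0 CPM in siL2 and 27.3 CPM in siNT. CDC25A was nearest to RB1 (0.033) and CDC25C to CDK2 (0.034). CDK4 was nearest to the 14-3-3 genes YWHAG (0.024), YWHAZ (0.025) and YWHAE (0.031), and CDK6 to TFDP2 (0.028). Among the 10 genes themselves the closest pair was CDC25C and CDKN1B (0.05). By this measure genes that vary little between libraries lie near each other whatever their pattern, and no background of such differences was computed.

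Some genes around these 10 in the pathway were called. Of 76 listed in 7 groups, 1 of which is not described further, 72 were tested, 4 were called higher and 6 lower, against 4.64% and 5.82% of all genes tested. Their median log2 fold change was -0.02, beside 0.01 over all genes tested. The groups of libraries did not overlap for 38 of the 72, beside 45.9% of all genes tested.

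Cyclins downstream of the G1 kinases gave the called changes of greatest size in each direction. CCNE2, which encodes cyclin E2, the partner of CDK2 at the start of S phase, rose from 16.9 and 10.9 CPM in siL2 and siNT to 36.8, 34.0 and 24.3 CPM in siIDT, sino4 and siSMPLT. All 3 USP17 libraries were above both controls, with siSMPLT the nearest to them (log2 fold change 1.19 ± 0.22, SE; adjusted p 0.0172, edgeR). CCNA2, which encodes cyclin A2 of S and G2 phase, fell from 166.2 and 215.7 CPM to 83.4, 101.5 and 111.7 CPM, a log2 fold change of -0.95 ± 0.14 (SE) with an adjusted p of 0.00946 (edgeR). Its 3' untranslated region carries the overlapping 7-base sequences named above. CCNE1 had a log2 fold change of 0.34 (adjusted p 0.115), and CCNB1, CCNB2, CDK1 and CDK2 were not called. CCNA1 was too low to test.

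In the retinoblastoma and E2F group 1 of 13 was called, beside 10.5% of all genes tested. E2F7, an E2F factor that represses transcription, rose from 106.9 and 109.5 CPM in siL2 and siNT to 137.9, 143.3 and 137.1 CPM in siIDT, sino4 and siSMPLT (log2 fold change 0.37 ± 0.07, SE; adjusted p 0.0179, edgeR). The spread within each group was far smaller than the gap between them. RBL1, which encodes p107, a relative of the retinoblastoma protein, had a log2 fold change of 0.31 (adjusted p 0.0567), and E2F4, an E2F that works with p107 and p130, had -0.27 (adjusted p 0.0948). RB1 itself had a log2 fold change of -0.03.

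Of the kinases that act on CDC25 or oppose it 1 of 9 was called higher and 1 lower. Over all genes tested the shares were 4.64% and 5.82%. ATR, the apex kinase of the replication checkpoint that leads through CHEK1 to CDC25A loss, rose from 109.9 ± 7.68 CPM (SD, n = 2) to 135.8 ± 3.38 CPM (SD, n = 3), or by 0.31 on the log2 scale (adjusted p 0.0398, edgeR). CHEK1 itself had 0.07 and WEE1, which adds the phosphate that CDC25 removes, -0.15, and neither was called. MAPKAPK2, a stress kinase that phosphorylates CDC25 proteins, fell by 0.41 on the log2 scale (adjusted p 0.0431), and AURKA had -0.25 (adjusted p 0.0944). Of the 14-3-3 proteins, which hold phosphorylated CDC25 in the cytoplasm, 2 of 6 tested were called lower and none higher. Over all genes tested 5.82% were called lower. YWHAB fell from 276.4 ± 10.1 CPM (SD, n = 2) to 216.5 ± 12.6 CPM (SD, n = 3), and YWHAQ from 752.2 ± 31.4 to 633.9 ± 15.1 CPM (log2 fold change -0.35 and -0.25; adjusted p 0.0237 and 0.0411, edgeR). YWHAE had a log2 fold change of -0.19 (adjusted p 0.0948), and SFN was too low to test.

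Of 17 genes for ubiquitin ligase parts that turn over CDC25A, cyclins D and E, p21 or p27, 1 was called higher and 2 lower. Over all genes tested the shares were 4.64% and 5.82%. FBXW7, which recognises cyclin E, rose from 50.5 and 44.8 CPM in siL2 and siNT to 79.5, 72.5 and 58.6 CPM in siIDT, sino4 and siSMPLT (log2 fold change 0.56, adjusted p 0.0327, edgeR). SKP2, the F-box protein that marks p27, fell from 189.0 and 201.0 CPM to 129.7, 149.7 and 164.8 CPM (-0.40, adjusted p 0.0432). UBAC1, a subunit of a ligase for free p27, fell from 82.6 and 81.1 CPM to 42.7, 55.2 and 61.9 CPM (-0.62, adjusted p 0.0281). In FBXW7, SKP2 and UBAC1 the siIDT library lay furthest from the controls and siSMPLT nearest. UBAC1 holds TCACTCA in its 3' untranslated region, and FBXW7 and SKP2 hold none of the 3 searched sequences. Nor do MAPKAPK2, YWHAB and YWHAQ, also called lower, or E2F7, CCNE2 and ATR, called higher. TCACTCA was picked on these libraries because its carriers were lower, so its presence in UBAC1 is a description only.

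No member of the group of other CDK inhibitors was called, beside 10.5% of all genes tested. CDKN1C (p57) had a log2 fold change of -0.57 (adjusted p 0.123, edgeR), CDKN2C (p18) 0.28 (adjusted p 0.131), and CDKN2B (p15) 1.41 at under 0.5 CPM (adjusted p 0.0941). CDKN2A stood at 8.41 CPM in siL2 and at 20.2 to 23.1 CPM in the other four libraries.

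**Figure D4:**
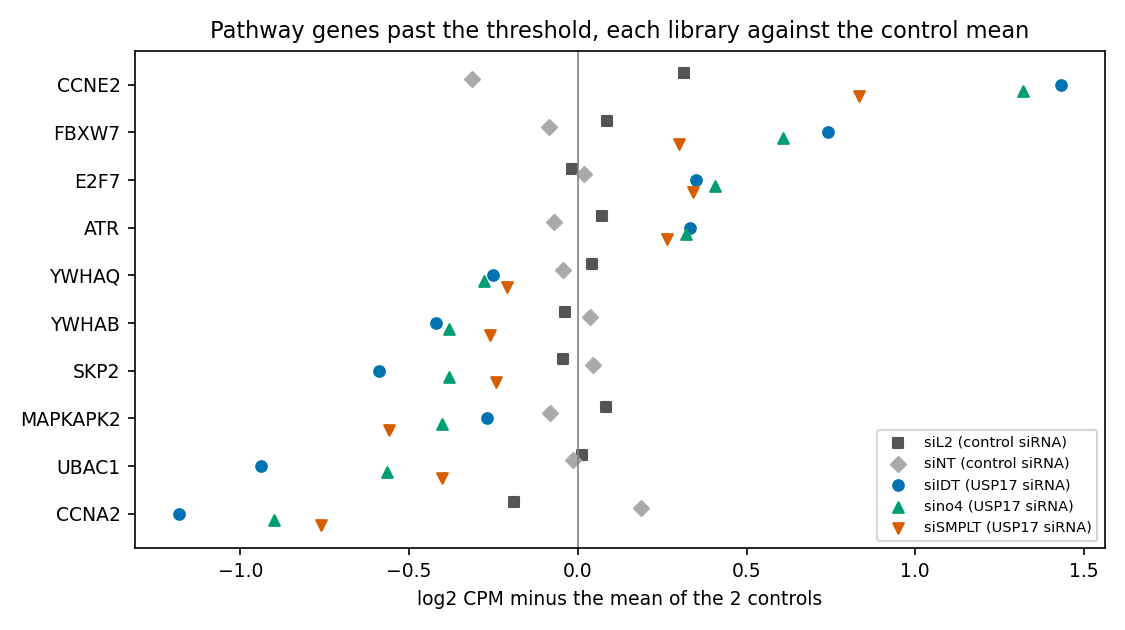
Log2 CPM of each library minus the mean of the 2 controls (x axis) for the 10 called pathway genes (y axis), with 1 point per library. In each gene the 3 USP17 points lie on one side of both controls, with CCNE2 highest and CCNA2 lowest.

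The calls of these 10 pathway genes depended on the libraries and on the processing. On TPM in place of counts, limma called 1 of them, CCNA2, with log2(TPM + 1) and 0 with log2(TPM + 0.1). In fits to counts fewer calls moved. With no filter on low counts ATR, MAPKAPK2 and YWHAQ were not called (adjusted p 0.0551, 0.0504 and 0.0508, edgeR), which left 7, and with RSEM counts MAPKAPK2 was not (adjusted p 0.0617). Without sino4 none of the 10 was called, and without siIDT 1 was, CCNA2, while the direction of each was kept in both fits. Without siSMPLT 7 were called. The fits without siL2 or without siNT have a single control each, and in neither did all 10 stay called, though other pathway genes were added. MAPKAPK2 and YWHAQ dropped out without siL2 (log2 fold change -0.323 and -0.204). ATR, FBXW7 and SKP2 dropped out without siNT (0.235, 0.474 and -0.353).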

How the data were processed

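Poly(A)-selected RNA of 5 COLO 320DM libraries was analysed. The submitters' processing notes name bcl2fastq 2.20, STAR 2.7.1a, RSEM 1.3.2 and the build GRCh38. No annotation release, read layout or strandedness is given in the sources used here. Deposited read counts are whole numbers per gene in STAR's layout, and the column of the gene's own strand was used, with 18.7 to 19.9 reads for each read on the other strand. The deposited RSEM tables, made by the authors, give expected counts, which share out reads of several places, TPM, effective lengths (another, per-base quantity) and the bounds of an interval of TPM, a signal that was read and not used in the text. Rows naming no gene were 22.8% to 24.4% of reads and were left out. In STAR's layout uniquely mapping reads alone count towards genes, so near-identical genes can lose reads.

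Counts were fitted in R 4.3.3 with edgeR 4.0.16 (filterByExpr, minimum count 10 and total 15; TMM; quasi-likelihood F test, two-sided; Benjamini-Hochberg over 16341 genes). The SE was taken from the F statistic, and 95% intervals from the fit's degrees of freedom. CPM uses the TMM-scaled library size, and log2 CPM a prior count of 2. Shares and ratios of TPM were compared by exact permutation (scipy 1.17.1). The edgeR step was tested on simulated data. Alternatives were DESeq2 1.42.0 (size factors, Wald test), limma 3.58.1 (voom, and log2 TPM with pseudocounts 1 and 0.1), other filters, RSEM counts rounded to whole numbers, unstranded counts, and leaving out each library.

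Of 111 listed genes all 111 matched a gene identifier. The 10 members, the lists and the 7-base sequences were chosen with earlier results of these data known. Marker lists are given by their sums, and from each pathway list the called genes were named, or up to 3 of smallest p where fewer were called, with the genes of most similar pattern; a few others, such as CHEK1, WEE1, RB1 and CDKN2A, were named after their values were seen. One pathway list is counted in the totals and otherwise not reported here. The siIDT, sino4 and siSMPLT libraries were taken as USP17-targeting because the series names the other two as controls. Gene and 3' untranslated region positions came from GENCODE 29 and promoters from RefSeq, both on GRCh38.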

Additional observations from a re-analysis of the deposited data

How the results depend on the processing

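Numbers of called genes among the 10 were 0 under all alternatives but one, leaving out siL2, when CCND2 was called (0 to 1 when 1 library was left out). Over all genes, 1710 were called, and 347 and 278 with limma on log2(TPM + 1) and log2(TPM + 0.1), 3074 at an adjusted p of 0.10, and 130 to 2633 when 1 library was left out (130 without sino4, 349 without siIDT, 1041 without siSMPLT, 2633 without siNT and 2430 without siL2). Of the pathway genes 10 were called, and 1, 0 and 17 under the first 3 of these and 0 to 19 when 1 library was left out. Fewer libraries or another threshold account for part of this by construction; otherwise the cause was not tested. No paired analysis was possible because the labels give no replicate numbers.

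Signs near 0 turned, while CCND1 kept its sign both as a fold change and as a share of summed TPM. On log2(TPM + 1) the log2 fold changes of CDC25C, CCND3 and CDKN1B were -0.037, 0 and 0.006, and on log2(TPM + 0.1) they were -0.039, 0.001 and 0.006. When 1 library was left out the ranges were -0.005 to 0.063 for CDC25A, -0.202 to 0.065 for CDC25B, -0.08 to 0.14 for CDC25C, 0.053 to 0.203 for CCND1, -0.249 to 0.071 for CCND3, -0.353 to 0.262 for CDKN1A and -0.145 to 0.06 for CDKN1B. Shares of summed TPM moved likewise, in percentage points: -1.309 to 2.897 for CDC25A, -2.536 to 1.613 for CDC25B, -1.358 to 0.218 for CDC25C, 1.018 to 2.494 for CCND1 and -0.525 to 2.821 for CCND3. Over all alternatives the log2 fold change of CDK4 stayed lower (-0.159 to -0.058) and that of CDK6 higher (0.017 to 0.135), uncalled throughout. The few reads of CDKN1A limit what depth can show for it.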
